A study of Mus musculus with 6 samples.

Results

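Day 3 was the earliest time at which embryoid bodies of the A2.miR200c line were profiled after doxycycline was first added, and its comparison rests on 2 of the 6 arrays of the study, the induced day 3 array and the untreated day 3 array. A2.miR200c is a mouse embryonic stem (ES) cell line derived from A2lox cells, in which the genomic cluster of miR-200c and miR-141 lies behind a doxycycline-inducible promoter. The line was grown without feeder cells for a passage, then differentiated in suspension in Petri dishes at 15000 cells per mL in 10% fetal calf serum. Induced cultures received 500 ng/mL doxycycline on day 2 and again on day 4, so the day 3 culture had received only the day 2 dose, and untreated cultures received none. RNA of a single line was measured once per treatment and day, which gives no replicate check of any difference and no test. A doxycycline-treated line without the microRNAs was not on these arrays, so an effect of doxycycline and an effect of the microRNAs cannot be told apart.

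The miR-200 family is a set of small RNAs of epithelial cells that pair through their seed, the bases near the 5′ end, with messenger RNAs and lower their level or translation. They are best known for acting on the transcription factors Zeb1 and Zeb2, which in turn repress E-cadherin and other epithelial genes as cells pass through an epithelial-to-mesenchymal transition. ES cells are epithelial, and in embryoid bodies they normally pass through this transition as the mesoderm forms. The mature 3p sequences of both induced microRNAs are shown because the seed decides which transcripts are their candidates for direct pairing. Bases 2 to 8, the seed, are in capitals, and the sequences are from RefSeq (GRCm38.p6).
miR-200c-3p: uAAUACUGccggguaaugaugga
miR-141-3p: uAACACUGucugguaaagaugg
They come from the minus strand of chromosome 6, at chr6:124718324-124718346 for miR-200c-3p and chr6:124717917-124717938 for miR-141-3p. Counted from the 5′ end, the seed of miR-141-3p differs from that of miR-200c-3p by U4C alone. The family members of chromosome 4, which were not part of the inducible cluster, carry the same 2 seeds.
miR-200b-3p: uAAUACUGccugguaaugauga
miR-429-3p: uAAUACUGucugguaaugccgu
miR-200a-3p: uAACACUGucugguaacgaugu
Thus miR-200b-3p and miR-429-3p share the seed of miR-200c-3p, and miR-200a-3p shares that of miR-141-3p. The arrays did not measure mature microRNAs, so the level of the induced microRNAs on day 3 is not known from them.

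Each value is a model-based intensity of an Affymetrix MOE430 2.0 probe set, on a linear scale, and each gene is represented by whichever of its single-symbol probe sets was brightest on average across the study. Differences are induced minus untreated on the scale log2(intensity + 50), which damps folds of dim probe sets, and levels of different genes are not compared. Of 18193 genes, 9997 reached the median gene value of 80.1 on at least 1 array and were compared. Median intensity was 35.47 on the induced day 3 array and 36.47 on the untreated day 3 array, and it lay between 34.51 and 36.94 over all 6 arrays. The background was set at 36.7, the 95th percentile of 78 olfactory and other sensory receptor genes. Both day 3 cultures had transcripts of pluripotency and of the epiblast. Pou5f1, the pluripotency factor Oct4, measured 4665 in induced and 4858 in untreated cells, and Sox2 measured 5335 in induced and 5581 in untreated cells. Of the epiblast genes, Fgf5 measured 1236 in induced and 1265 in untreated cells, and Otx2 measured 1777 in induced and 1836 in untreated cells. Cer1, a secreted inhibitor made by the early endoderm, was below background in both, at 5.48 in induced and 4.26 in untreated cells. Feeder fibroblast genes were above background for 4 of 13 matched members in both cultures, and their summed intensity was 378 in induced and 351 in untreated cells. On bulk RNA, fewer cells of a type and less RNA per cell cannot be told apart.

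The 2 day 3 cultures were close to each other. At 1.5-fold, 9 genes were higher in induced cells (0.0900% of the genes compared) and 20 were lower (0.200%). The corresponding shares were 1.03% higher and 1.39% lower on day 4, and by day 5 they were 5.24% higher and 3.51% lower. The standard deviation of the differences across genes was 0.15 on day 3, 0.23 on day 4 and 0.39 on day 5, so the spread between cultures widened with each day. On day 3 it was 0.19 among the dimmest 20% of genes and 0.10 among the brightest 20%. Of the genes past 1.5-fold, 5 of the 9 higher and 11 of the 20 lower had a mean intensity under 200 on day 3, against 31.5% of all genes. The counts depended on the constant added before the logarithm: with 16 in place of 50 they were 37 higher and 74 lower, and with 100 they were 2 and 9. The last gene inside the threshold among those higher was Zdhhc3 (0.60) and the first outside was Dsp (0.58), and for those lower they were Nkx2-6 (-0.59) and Kcng4 (-0.58), so the line falls within a continuous run of values.

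**Figure D1:**
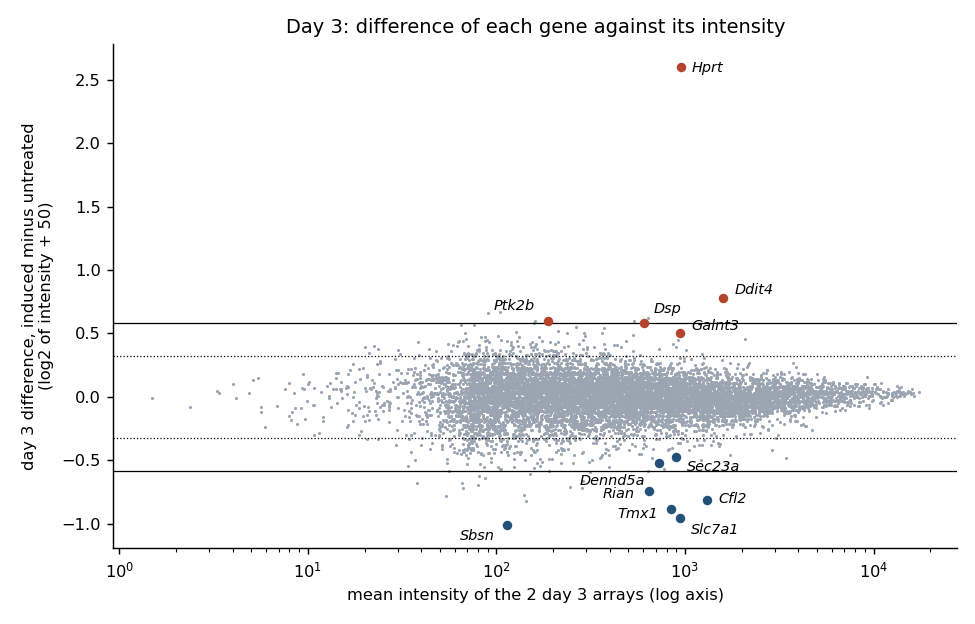
Difference of each of the 9997 genes on day 3 (induced minus untreated, log2 of intensity + 50, y axis) against the mean intensity of the 2 day 3 arrays (x axis, log scale), each point a gene. Solid lines mark 1.5-fold and dotted lines 1.25-fold. Hprt at 2.60 stands far above all other genes, Cfl2 at -0.81 is among the lowest, and the cloud narrows towards bright probe sets.

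Hprt, which encodes a purine salvage enzyme, had by far the highest difference of day 3. It measured 1671 in induced and 234 in untreated cells on day 3, 2539 induced and 125 untreated on day 4, and 2977 induced and 102 untreated on day 5. Thus its intensity was higher on every induced array than on any untreated array, and the difference was 2.60 (6.07-fold) on day 3, 3.89 on day 4 and 4.31 on day 5. In the A2lox family of lines the doxycycline-responsive cassette was placed next to Hprt on the X chromosome. The 10 nearest protein-coding genes among those compared, 5 on each side in the RefSeq order, had day 3 differences between -0.11 and 0.19. Of them 0 passed 1.25-fold, against 1.66% of all genes higher and 2.59% lower. Its immediate neighbour Phf6, a chromatin protein gene, measured 428 in induced and 466 in untreated cells (-0.11). Plac1, its immediate neighbour on the other side, was below background on both day 3 arrays, at 12.2 in induced and 7.93 in untreated cells. So were Rtl8c (18.4 and 10.0) and 1700013H16Rik (24.2 and 29.7), and such dim genes could hardly show a difference. The early difference at this locus was thus seen for Hprt and not for the neighbours above background. What the cassette contributes to the Hprt signal was not tested.

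Cfl2, the gene of the actin-severing protein cofilin 2 and a target of miR-200 named in the literature, was the only gene at least 1.5-fold lower on all 3 days. It measured 941 in induced and 1686 in untreated cells on day 3 (-0.81), 833 induced and 1568 untreated on day 4 (-0.87), and 743 induced and 1922 untreated on day 5 (-1.31). Its further probe sets above background were also lower in induced cells on day 3, by -0.40 (165 induced, 232 untreated) and -0.28 (47.8 induced, 68.9 untreated). These 2 probe sets differed by -0.24 and -0.01 on day 4 and by -0.54 and -0.22 on day 5, so neither was 1.5-fold lower on any day. The Cfl2 signal on day 3 was thus lower on each of its probe sets, to an extent that differed between them.

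Other named miR-200 targets differed less on day 3. Of the 35 compared, 22 were lower in induced cells, against 48.2% of all genes, and the list had a median of -0.06, against 0.00 for all genes. By day 4 its median was -0.31, and by day 5 it was -0.40. After Cfl2 the lowest was Sec23a, a coat protein of vesicles leaving the endoplasmic reticulum, at 744 in induced and 1052 in untreated cells (-0.47). Its difference was -0.52 on day 4 and -0.67 on day 5. In the list of COPII coat and secretory genes, Sec23a stood alone, since the other members ranged up to 0.12 and none of them passed 1.25-fold. Zeb2, the E-cadherin repressor, measured 24.8 in induced and 43.7 in untreated cells on day 3 (-0.33), with the induced value below the background of 36.7 and the untreated value just above it. Its further probe sets gave -0.35, -0.19 and -0.08 at values no higher than 45.9, so all of its day 3 signal was near background. On day 4 its difference was -0.84 and on day 5 it was -1.44. Zeb1, its relative, measured 132 in induced and 131 in untreated cells on day 3 (0.01), then -0.31 on day 4 and -1.05 on day 5. Ppm1f, a protein phosphatase gene, differed by -0.31, whereas Tgfb2, a growth factor of the TGF-beta family, was 0.37 higher on day 3 and then -1.08 and -1.41.

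Epithelial genes were already higher as a group in induced cells on day 3. Of 37 epithelial genes compared, 31 were higher in induced cells, against 51.8% of all genes, and 12 were past 1.25-fold higher (1.66% of all genes) with 1 past it lower (2.59%). The list's median difference was 0.23 on day 3, 0.53 on day 4 and 1.17 on day 5, and the same 31 genes were higher on all 3 days, against 19.3% of all genes. The list was chosen with the later days in view and is no independent evidence of its direction. Its summed intensity over matched members was 35502 in induced and 30941 in untreated cells on day 3.

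The 12 included genes of keratins, desmosomes and cell polarity. Dsp, the desmosomal plaque protein desmoplakin, measured 739 in induced and 476 in untreated cells (0.58). Its further probe sets gave 0.16 and -0.23, so that difference was not shared by them. Jup, plakoglobin of the same plaque, measured 203 in induced and 133 in untreated cells (0.47). The keratins of simple epithelia were higher together: Krt18 measured 2433 in induced and 1755 in untreated cells (0.46). Krt8, its partner, measured 1068 in induced and 767 in untreated cells (0.45), and Krt19 measured 245 in induced and 181 in untreated cells (0.35). The keratin pair was close again by day 5, with differences of 0.19 for Krt8 and 0.16 for Krt18. Galnt3, which starts mucin-type sugar chains, behaved otherwise. It measured 1116 in induced and 775 in untreated cells on day 3 (0.50), 1152 induced and 520.2 untreated on day 4 (1.08), and 817 induced and 116 untreated on day 5 (2.38), so its difference grew as the untreated culture lost its signal. Cgn, the tight junction protein cingulin, measured 434 in induced and 292 in untreated cells (0.50), although its further probe set gave -0.39. St14, the membrane protease matriptase, measured 433 in induced and 311 in untreated cells (0.42), and its difference was 1.95 on day 5.

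E-cadherin itself was not among the early genes. Cdh1, which encodes it, measured 7725 in induced and 7232 in untreated cells on day 3 (0.09), then differed by 0.20 on day 4 and 0.95 on day 5. Epcam, another epithelial adhesion molecule, measured 3178 in induced and 3232 in untreated cells (-0.02), then differed by 0.49 and 1.97. Other adhesion genes of the list were spread between these and the early ones. Cdh3, which encodes P-cadherin, differed by 0.35 on day 3. The tight junction genes ranged from Cldn3 (-0.03), Cldn4 (0.07) and Ocln (0.10) through Marveld2 (0.16), Cldn7 (0.23), Cldn6 (0.26) and Marveld3 (0.28) to Cgn (0.50), so they were spread over the range rather than alike. Of the 6 epithelial genes lower on day 3, only Myo5b, a motor for vesicle traffic, passed 1.25-fold. It measured 39.0 in induced and 92.7 in untreated cells (-0.68), with 140.2 induced and 45.1 untreated on day 4 (1.0).

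**Figure D2:**
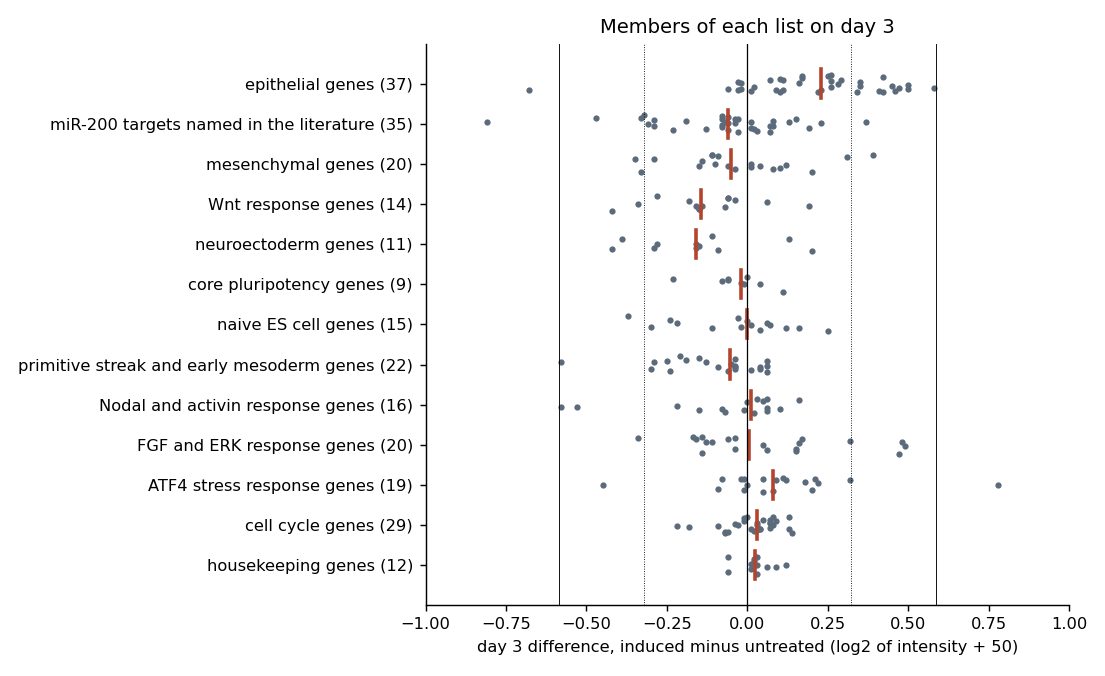
Day 3 differences (x axis, induced minus untreated, log2 of intensity + 50) of the members of 13 gene lists, each dot a gene and each red bar the list's median, with the number of genes compared in brackets. Solid lines mark 1.5-fold and dotted lines 1.25-fold, and Hprt is in none of the lists drawn. The epithelial genes lie to the right with a median of 0.23, the Wnt response and neuroectoderm genes to the left with medians of -0.14 and -0.16, and the rest near 0.

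Among the other genes higher on day 3, Ddit4 was the second after Hprt. Ddit4 encodes an inhibitor of the growth kinase mTORC1 and is a target of the stress factor ATF4. It measured 2034 in induced and 1164 in untreated cells on day 3 (0.78), 3146 induced and 2454 untreated on day 4 (0.35), and 2882 induced and 3195 untreated on day 5 (-0.15). The difference was thus largest at the start. The 19 ATF4 stress response genes compared had a median of 0.08, with Ddit4 the only member past 1.5-fold. Ptk2b, a kinase of the focal adhesion kinase family, measured 237 in induced and 139.6 in untreated cells (0.60). Its difference was 0.62 on day 4 and 0.73 on day 5, which made it, with Hprt, 1 of the 2 genes at least 1.5-fold higher on all 3 days.

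The remaining 6 genes at least 1.5-fold higher on day 3 did not keep that size. Iqce, a protein of the primary cilium, measured 140.1 in induced and 69.5 in untreated cells (0.67), but -0.80 on day 5. Spata6 (0.66), a gene of sperm development, and Yipf2 (0.62), a Golgi membrane protein, differed by 0.00 and -0.35 on day 5. Ephb3 (0.60), an ephrin receptor, differed by 0.06 on day 4 and 0.41 on day 5. Zdhhc3 (0.60), a palmitoyltransferase, differed by 0.08 and 0.09. Obsl1 (0.60), a cytoskeletal adaptor, was lower in induced cells on its further probe sets (-0.12 and -0.42). Just below the threshold, Abcg1, a cholesterol exporter, differed by 0.57, 0.56 and 0.55 over the 3 days, and Sdc3, a cell surface proteoglycan, by 0.58, -0.66 and -0.84. The further Abcg1 probe set did not share this, with -0.12, -0.16 and 0.06. On days 4 and 5 the untreated Abcg1 values of 27.6 and 14.5 were below background.

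Of the 20 genes at least 1.5-fold lower on day 3, 9 were lower by any amount on day 4 (45.0%, against 45.9% of all genes) and 5 on day 5 (25%, against 46.7%). Slc7a1, a transporter of arginine and lysine, measured 624 in induced and 1253 in untreated cells on day 3 (-0.95), 690.0 induced and 491 untreated on day 4 (0.45), and 388 induced and 442 untreated on day 5 (-0.17). The untreated day 3 value was the highest of the 6, and a further Slc7a1 probe set gave 443 in induced and 463 in untreated cells (-0.06). Tmx1, a thioredoxin-related protein of the endoplasmic reticulum, measured 582 in induced and 1110.3 in untreated cells (-0.88), then differed by -0.12 and 0.11. In that case the induced day 3 value was the lowest of the 6. Rian, a maternally expressed imprinted non-coding RNA, measured 473 in induced and 820.4 in untreated cells (-0.74), then differed by 0.20 and 0.22. Its further probe sets gave -1.09, -0.29 and 0.01 on day 3, so they were not alike. Sbsn, a gene of the epidermis, was the lowest at 58.7 in induced and 169 in untreated cells (-1.01, 2.02-fold), but its further probe set gave 0.12. Scml2, a Polycomb-related gene, measured 90.3 in induced and 197 in untreated cells (-0.82), and differed by -0.14 on day 4. Crtc2 and Hamp2 are also among the 20, but they reached the filter value of 80.1 on the untreated day 3 array alone, so their dimmer untreated values on later days follow from that choice of genes. Besides Cfl2, Thnsl2 was past 1.5-fold lower on day 4 too, but its induced values of 17.6 on day 3 and 29.4 on day 4 were below background.

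**Figure D3:**
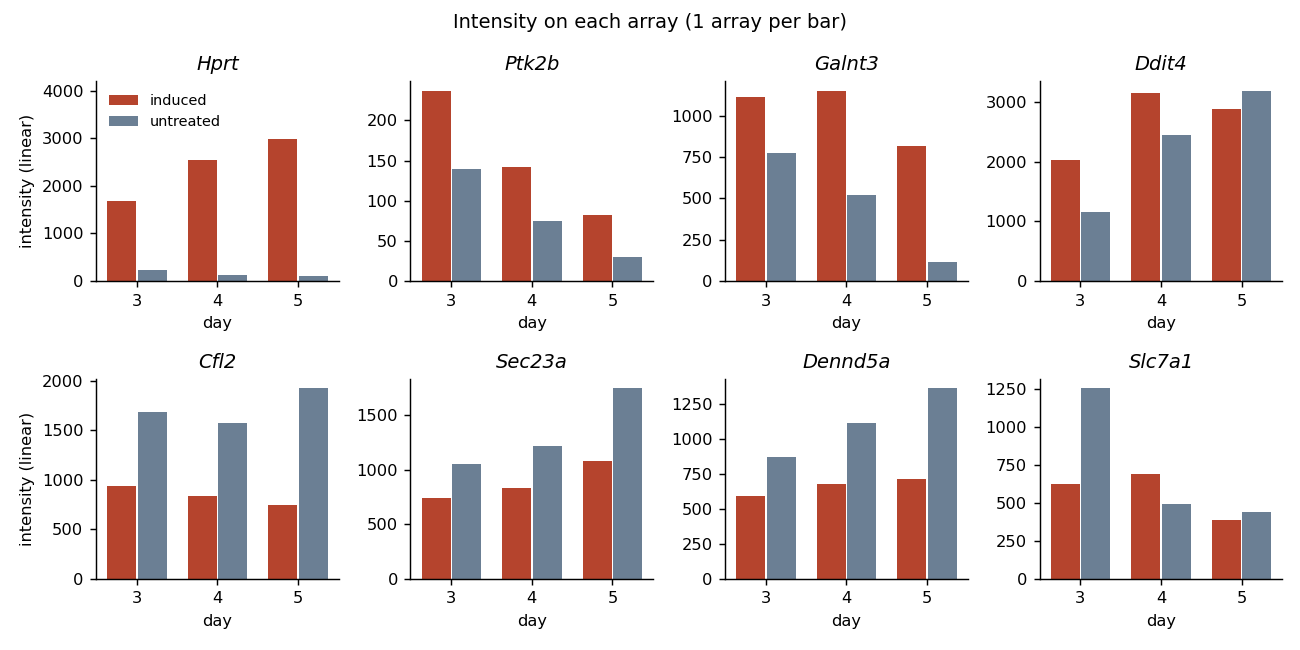
Intensity (y axis, linear, from 0) of 8 genes on each array by day of differentiation (x axis), red bars for induced and grey bars for untreated cultures, 1 array per bar and therefore no error bars. Hprt, Ptk2b and Galnt3 were higher and Cfl2, Sec23a and Dennd5a lower in induced cells on all 3 days, whereas Ddit4 and Slc7a1 changed sides between days.

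Whether the early differences held was asked on days 4 and 5, whose arrays share no RNA with day 3 although they share the line, the probe sets and the treatment. At 1.5-fold, 2 of the 9 higher genes were past the threshold in the same direction on day 4 and 2 on day 5, and of the 20 lower genes 2 and 1 were. Because these numbers are small, 1.25-fold was also used, a threshold chosen after the data were seen. At that size 166 genes were higher and 259 lower on day 3. Of the 166, 61 (36.7%) were past it on day 4 and also 61 (36.7%) on day 5, against 5.96% and 13.1% of all genes. Of the 259, 33 (12.7%) were past it on day 4 and 28 (10.8%) on day 5, against 4.16% and 8.86% of all genes. So the genes higher on day 3 were past the threshold later more often than all genes were. Those lower on day 3 came close to the share of all genes by day 5. By sign alone, 72.9% of the higher genes kept their direction on day 4 and 64.5% on day 5, against 54.0% and 53.2% of all genes. For the lower genes it was 49.4% and 42.1%, against 45.9% and 46.7% of all genes.

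Holding differed with brightness. Of the 61 higher genes with a day 3 mean of at least 200, 50.8% were past 1.25-fold on day 4. On day 5 it was 44.3%. Among all genes that bright the shares were 4.79% and 11.7%. Of the 105 dimmer higher genes, 28.6% were past it on day 4 and 32.4% on day 5, against 8.51% and 16.3%. Of the 99 lower genes that bright, 15.2% were past 1.25-fold lower on day 4 and 17.2% on day 5, against 2.22% and 7.14%. Of the 160 dimmer lower genes it was 11.2% and 6.9%, against 8.38% and 12.6%. Without the epithelial genes, 51 of the 154 higher genes (33.1%) were past it on day 4, against 5.68% of other genes. On day 5 it was again 33.1%, against 12.9%. So the share was not carried by that list alone. Within the epithelial list, 10 of the 12 genes past 1.25-fold higher on day 3 were past it on day 4 (83.3%, against 81.1% of all its genes) and 10 on day 5 (83.3%, against 89.2%), so there the early genes did not stand apart from the rest of the list. Across all 9997 genes, the day 3 difference had a Pearson correlation of 0.19 with the day 4 difference and 0.10 with that of day 5, and 0.17 and 0.08 without Hprt. These describe genes, which are not independent replicates, and they share probe sets.

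**Figure D4:**
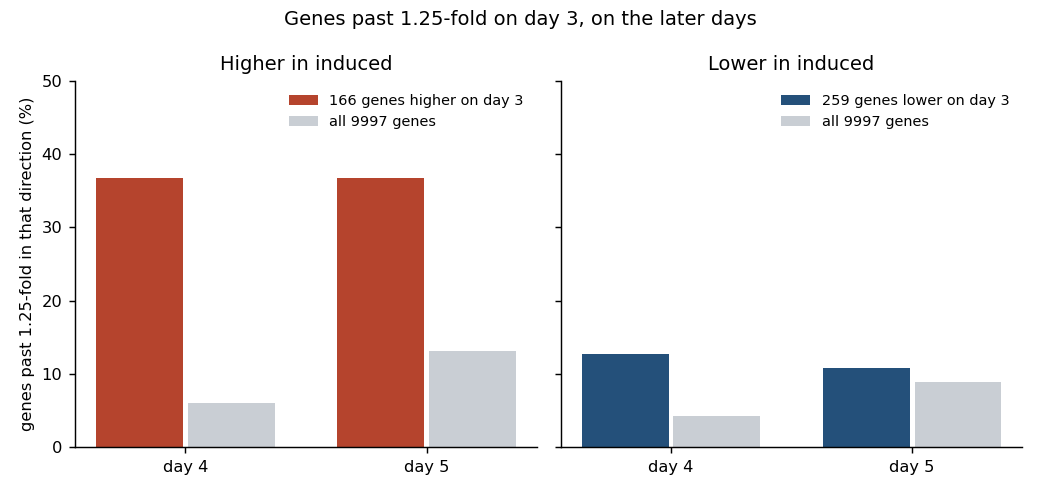
Share of genes (y axis, %) past 1.25-fold in the same direction on day 4 and day 5 (x axis), for genes past it on day 3 (coloured bars) and for all 9997 genes (grey bars). The 166 genes higher on day 3 reached 36.7% on each later day, and the 259 lower ones reached 12.7% and 10.8%.

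A further check was whether other probe sets of a gene gave the same direction on day 3. Where a gene had several further probe sets above background, their median was used. Among the 166 higher genes, 55 had another probe set above background, and 30 of these (54.5%) were also higher, against 50.6% among all genes that were higher. Among the 259 lower genes it was 57 of 102 (55.9%), against 59.3% among all lower genes. That median was itself past 1.25-fold in the same direction for 2 of the 55 and 5 of the 102. For most genes the difference was therefore not matched in size by the median of the further probe sets. A single further probe set past 1.25-fold, as for Rian (-1.09), can be hidden by that median. Of the genes lower on all 3 days at 1.25-fold, 9 of the 10 with a further probe set were lower on it too. Of those higher on all 3 days it was 6 of 12. The further probe sets are dimmer by construction.

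At 1.25-fold, 37 genes were higher on all 3 days (0.370% of all genes) and 15 were lower (0.150%), and the genes of these groups named next were chosen after their values were seen. Of the 37, 8 were on the epithelial list: Arhgef16, Cdh3, Cgn, Galnt3, Krt19, Llgl2, St14 and Tmem30b. Arhgef16, an activator of small GTPases, measured 322 in induced and 227 in untreated cells on day 3 (0.42), and differed by 1.20 on day 5. Outside that list, Grb7, an adaptor of receptor kinases, measured 993 in induced and 731 in untreated cells (0.42). Slc40a1, the iron exporter ferroportin, measured 528 in induced and 392 in untreated cells (0.39), and its difference was 1.14 on day 4 and 1.49 on day 5. Anxa1 (0.35), a membrane-binding protein, and Neat1 (0.45), a nuclear non-coding RNA, differed by 1.22 and 1.55 on day 5. The further Neat1 probe set gave -0.29 on day 3 and 0.11 on day 5. Over the 37 genes the median difference was 0.39 on day 3, 0.61 on day 4 and 0.73 on day 5, and 31 of them had a larger difference on day 5 than on day 3. Among those that did not were Abcg1 (0.57 on day 3, 0.55 on day 5) and Vgll3 (0.44 on day 3, 0.36 on day 5).

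The 15 lower genes held Cfl2, Sec23a and Zeb2 from the list of miR-200 targets, and 14 of the 15 had a larger difference on day 5 than on day 3. Dennd5a, a regulator of Rab GTPases in vesicle traffic, measured 589 in induced and 868 in untreated cells on day 3 (-0.52), 674 induced and 1112 untreated on day 4 (-0.68), and 709 induced and 1359 untreated on day 5 (-0.89). As for Cfl2 and Sec23a, every induced value lay below every untreated value except that the induced day 5 Sec23a value of 1075 was above its untreated day 3 value of 1052. Has2, the synthase of the matrix sugar hyaluronan, measured 485 in induced and 681 in untreated cells (-0.45), and differed by -1.45 on day 5. Vldlr, a lipoprotein receptor, measured 179 in induced and 263 in untreated cells (-0.45), and its dimmer further probe sets gave from -0.39 to 0.00. Unc5c, a netrin receptor, measured 22.3 in induced and 52.0 in untreated cells (-0.50), with the induced value below background, and the untreated culture reached 574 on day 5. Myc, the growth regulator, measured 527 in induced and 681 in untreated cells (-0.34), with -0.47 on day 4 and -0.89 on day 5.

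**Figure D5:**
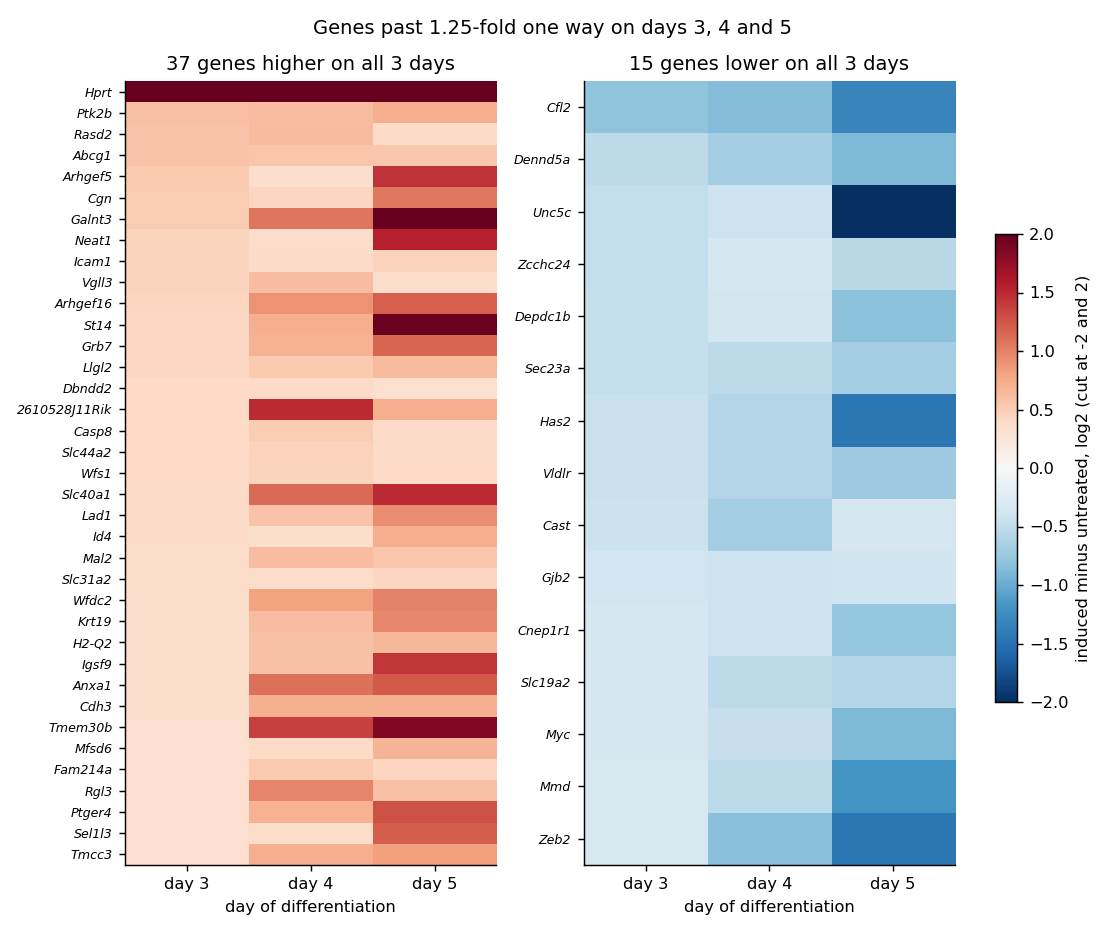
Differences (colour, induced minus untreated, log2 of intensity + 50, cut at -2 and 2) of the 37 genes higher and the 15 genes lower by at least 1.25-fold on days 3, 4 and 5 (x axis), sorted by day 3 within each panel. Hprt is the only gene that reaches the upper limit on day 3, and for many others, such as Galnt3 and Zeb2, the colour deepens by day 5.

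Promoters of the epithelial list and of the genes past 1.25-fold were searched for the E-box bound by Zeb and Snail factors, CACCTG. It reads CAGGTG where it lies on the other strand. The RefSeq window searched ran from 250 bases before to 50 after each gene's start. The epithelial list was taken whole, with genes that were not early, such as Cdh1 and Epcam, and its early members were not counted apart. No other motif was searched. Of the 25 epithelial genes compared that had a window, 22 (88%) held at least 1 match. The share was 20.4% for the 8161 genes compared with a window and 22.6% for all genes with one. The list was chosen with earlier results of these data known. It holds genes that the authors name as directly repressed by Snail, such as Cdh1 and Ocln. Its share of matches is therefore no independent result. The 166 genes higher on day 3 at 1.25-fold include 12 of the epithelial list. Of the 166, 125 had a window and 39 of these (31.2%) held a match, and for the 259 lower genes it was 18.8%. Of the 37 genes higher on all 3 days, 8 of which are on the epithelial list, 25 had a window and 13 of these (52.0%) held a match, and of the 15 lower genes 2 of 12 (16.7%) did. The shares of the 166 and of the 37 were not counted without their epithelial members. Windows with 3 or more matches made up 0.365% of all 32851 windows. The 3 windows shown are those of genes higher on all 3 days and on the epithelial list with 3 or more matches, which are in capitals.
Galnt3: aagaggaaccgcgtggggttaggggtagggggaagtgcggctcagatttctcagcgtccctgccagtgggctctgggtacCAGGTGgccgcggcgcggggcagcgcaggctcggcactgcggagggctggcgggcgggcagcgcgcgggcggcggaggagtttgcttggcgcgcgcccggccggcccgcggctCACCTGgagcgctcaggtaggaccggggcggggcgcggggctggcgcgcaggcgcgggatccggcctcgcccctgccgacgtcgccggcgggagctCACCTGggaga
Tmem30b: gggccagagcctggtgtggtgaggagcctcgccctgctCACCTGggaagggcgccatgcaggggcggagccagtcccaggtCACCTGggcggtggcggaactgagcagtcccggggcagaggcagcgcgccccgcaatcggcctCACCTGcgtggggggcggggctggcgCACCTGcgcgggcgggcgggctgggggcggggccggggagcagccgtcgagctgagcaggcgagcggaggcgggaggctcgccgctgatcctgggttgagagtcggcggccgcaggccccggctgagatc
Arhgef16: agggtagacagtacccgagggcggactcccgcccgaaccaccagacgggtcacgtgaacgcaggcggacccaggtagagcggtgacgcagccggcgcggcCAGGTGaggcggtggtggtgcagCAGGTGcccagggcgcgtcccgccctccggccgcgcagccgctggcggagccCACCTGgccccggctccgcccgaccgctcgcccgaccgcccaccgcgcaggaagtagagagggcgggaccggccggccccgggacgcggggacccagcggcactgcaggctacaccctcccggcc
In GRCm38.p6 they lie on the minus strand at chr2:66124744-66125043 for Galnt3, chr12:73546346-73546645 for Tmem30b and chr4:154299846-154300145 for Arhgef16. The Tmem30b window, of a gene for a flippase subunit, held 4 matches, and the others held 3 each. Tmem30b measured 418 in induced and 319 in untreated cells on day 3 (0.34), with 1.37 on day 4 and 1.85 on day 5. A match describes letters and not binding, and whether Zeb or Snail factors act on these genes was not tested.

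The Wnt response and neuroectoderm lists had the lowest medians of day 3. Of 14 Wnt response genes compared, 12 were lower in induced cells, against 48.2% of all genes. Of the 14, 2 passed 1.25-fold lower, against 2.59% of all genes. The list had a median of -0.14 on day 3, -0.48 on day 4 and -0.38 on day 5. Of its genes, 7 were lower on all 3 days, against 14.3% of all genes. Lef1, a transcription factor of the pathway and its target, measured 691 in induced and 942 in untreated cells (-0.42), with -0.47 and -0.28 on the later days, and its further probe set gave -0.08 on day 3. Tnfrsf19, a receptor of the TNF family, measured 162 in induced and 207 in untreated cells (-0.28), and -0.15 and -0.08 on its further probe sets. Of 11 neuroectoderm genes, 9 were lower with a median of -0.16, and 2 of the 11 passed 1.25-fold lower, against 2.59% of all genes. That median was -0.14 on day 4 and -0.19 on day 5, and 6 of the 11 were lower on all 3 days. A count of signs as uneven was seen for housekeeping genes, of which 10 of 12 were higher with a median of 0.02. Sox1, the early neural factor, measured 57.0 in induced and 93.0 in untreated cells (-0.42), but it was compared only because the untreated value passed the filter. Sox11, another SOX factor, measured 2005 in induced and 2464 in untreated cells (-0.29), whereas its 5 further probe sets lay between -0.19 and 0.09.

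Core pluripotency genes did not differ by 1.25-fold on day 3. Over 9 core genes the median was -0.02, and the range was from Nanog, at 2363 in induced and 2777 in untreated cells (-0.23), to Dnmt3b, a DNA methyltransferase, at 11392 in induced and 10582 in untreated cells (0.11). On day 5 that median was 0.76. The epiblast genes Fgf5 (-0.03), Otx2 (-0.05) and Nodal (0.00) had day 3 differences near 0 and day 5 differences of 2.33, 2.14 and 2.14. Thus the later difference in these genes was not visible on day 3. Zic2, a zinc finger factor of the epiblast, stood out at 890.3 in induced and 1209.8 in untreated cells (-0.42).

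For the primitive streak the first differences were few. Of 22 genes compared, 16 were lower with a median of -0.06, and 12 of the 28 matched members were above background in induced and 14 in untreated cells. Eomes, a T-box factor of the streak, measured 499 in induced and 769 in untreated cells on day 3 (-0.58), 2539 induced and 3729 untreated on day 4 (-0.55), and 3364 induced and 2141 untreated on day 5 (0.64). Fst, the activin-binding protein follistatin, followed the same course, at 1342 in induced and 1955 in untreated cells (-0.53), then -0.45 and 1.06. Mixl1, a homeobox gene of the streak, measured 85.6 in induced and 109.7 in untreated cells (-0.24), with -0.71 on day 4 and 0.96 on day 5. Eomes, Fst and Mixl1 were thus lower on the first days and higher on day 5. Kdr, the receptor of blood and vessel precursors, measured 48.6 in induced and 58.1 in untreated cells (-0.13), and differed by -2.25 on day 4. Snai1, the Snail gene, was below background on day 3, at 18.6 in induced and 16.5 in untreated cells.

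Among genes that respond to FGF and ERK signalling, 10 were higher and 10 lower in induced cells, with a median of 0.01. Myc, on this list too, was past 1.25-fold lower (-0.34), against 2.59% of all genes. Phlda1 (0.49), Ier3 (0.48) and Dusp5 (0.47), all rapid targets of growth signals, were past 1.25-fold higher, against 1.66% of all genes. Ier3 measured 352 in induced and 239 in untreated cells, and Phlda1 measured 627 in induced and 430.4 in untreated cells. On day 4 they differed by 0.36 for Phlda1, 0.75 for Ier3 and -0.09 for Dusp5, and on day 5 by -0.68, -0.12 and 0.34, so none of the 3 was past 1.25-fold higher on every day. The 29 lists other than the epithelial, Wnt response and neuroectoderm lists had day 3 medians between -0.10 (interferon and antigen presentation) and 0.08 (ATF4 stress response). Housekeeping genes had a median of 0.02, from Tbp (-0.06) to Polr2a (0.12), cell cycle genes 0.03, microRNA processing genes -0.03, Polycomb genes 0.00 and mesenchymal genes -0.05.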

How the data were processed

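RNA of A2.miR200c embryoid bodies was hybridised to Affymetrix MOE430 2.0 arrays. The authors normalised and modelled the arrays in dChip (version not given in the sources used here) and deposited a linear model-based intensity for each of 45037 probe sets. No detection calls were used. Of the probe sets, 34945 carried a single gene symbol in the platform annotation, 932 several and 9160 none, and only the single-symbol ones were used. The calculations were made in Python 3.11.15 with numpy 2.4.6 and pandas 2.3.3. Induced minus untreated differences of log2(intensity + 50) were taken within each day, with 1 array a group, so no p-value was computed. The arrays' number limits the precision. The counting steps were tested on simulated data with planted 2-fold changes in bright genes and less noise than the arrays showed. That test checks the code and does not speak to the counts reported here.

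The members, the 32 gene lists and the rules were chosen with earlier results of these data known. Named genes were the 15 highest and 15 lowest on day 3, the list members past 1.5-fold or else up to 3 per list with the largest differences, a set of marker genes, up to 5 each way past 1.5-fold in opposite directions on days 3 and 5, and up to 10 each way past 1.5-fold on all 3 days. Other genes named were chosen after their values were seen. Old symbols matched through RefSeq synonyms for 3 list genes, and of 620 list genes 30 were not matched, 93 were below the filter and 497 were compared. Alternatives were constants of 16 and 100, other filters, quantile normalisation, median centring, the median over a gene's probe sets, and thresholds of 2-fold and 1.25-fold.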

Additional observations from a re-analysis of the deposited data

Results flagged for a closer look

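Myo5b and Iqce were past 1.5-fold in opposite directions on day 3 and on a later day, and the difference between the days was not tested, since each rests on 1 array per group. Myo5b, a vesicle motor gene, differed by -0.68 on day 3 and 1.0 on day 4, and it measured 50.5 in induced and 35.5 in untreated cells on day 5 (0.23). Iqce differed by 0.67 on day 3, 0.27 on day 4 and -0.80 on day 5, and its further probe sets gave day 3 differences of 0.15 and 0.08. Each group held 1 array, so no value could be compared with others of its group.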

How the results depend on the processing

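No paired analysis was possible because the day 3 comparison holds 1 array per treatment (pairing by day would need the other days and measures their shared effect), and leaving out a replicate was not possible for the same reason. The numbers past 1.5-fold on day 3 (9 higher and 20 lower) moved to 37 and 74 with a constant of 16, to 2 and 9 with 100, to 3 and 6 with the median over a gene's probe sets, to 1 and 1 at 2-fold, and to 166 and 259 at 1.25-fold, which was chosen after seeing the data. They were 9 and 23 with the filter on the mean of the 2 day 3 arrays, 12 and 30 without a filter, 10 and 19 after quantile normalisation, and 12 and 19 after median centring. The share of day 3 genes still past the threshold moved at 2-fold, to 100% of 1 higher gene (Hprt) and 0.0% of 1 lower gene (Sbsn) on days 4 and 5, and with the median over probe sets to 0.0% of 6 lower genes on day 5. With the median over probe sets, Sbsn (0.06), Obsl1 (-0.12), Col1a2 (0.05), Dbndd2 (-0.03) and Fam214a (-0.01) changed sign, Slc7a1 came to -0.06, and Cfl2 and Hprt kept theirs at -0.40 and 2.60. All 224 recomputed list medians moved by less than 0.1. Dim probe sets limit the folds, since the added constant damps them and the spread between the day 3 arrays was widest there.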
